A study of Homo sapiens with 8 samples.

Results

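The BCL2 family decides whether a cell keeps or loses the integrity of its outer mitochondrial membrane. Guardians such as BCL2, BCL-XL and MCL1 hold the pore formers BAX and BAK in check, and BH3-only proteins such as BIM, PUMA, NOXA, BID and BAD tip the balance by binding guardians or by activating pore formers directly. Once BAX or BAK opens the membrane, cytochrome c leaks out and caspases are switched on. Many carcinomas, lung adenocarcinoma among them, lean on BCL-XL or MCL1 to survive.

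Described here are 10 genes of this family, chosen by name as its best known regulators: the guardians BCL2, BCL2L1 (which encodes BCL-XL) and MCL1, the BH3-only genes BCL2L11 (BIM), BBC3 (PUMA), PMAIP1 (NOXA), BID and BAD, and the pore formers BAX and BAK1. Each was read by 1 probe set that the array annotation gives that gene symbol alone, so all 10 of the 10 members were measured, out of 18404 genes in all. The rule that picks them uses no measured value, although the genes were chosen with earlier results of these data known. None of the members was removed for low signal, since no such filter was applied.

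The 8 Affymetrix arrays measured total RNA of the human non-small cell lung cancer lines NCI-H1299 and NCI-H2009 (H1299 and H2009 from here on). H1299 is known to lack p53 and H2009 to carry a mutant form, which matters for BBC3 and PMAIP1, both classical p53 targets. The H1299 groups were 2 arrays with lentiviral hairpins against PTK7 (PTK7-1 and PTK7-2) and 2 with control hairpins (GFP and luciferase, here LUC), and the H2009 groups were 2 arrays with the same PTK7 hairpins and 2 with the same control hairpins. PTK7 encodes a catalytically inactive receptor tyrosine kinase of Wnt and planar cell polarity signalling. All groups shared lentiviral infection for 2 days, puromycin selection for 2 days and harvest on day 4, so no array shows uninfected cells. A group therefore holds 2 different hairpins rather than repeats of a hairpin, nothing in the labels names separate cultures, and p-values measure only the spread between these arrays. In bulk RNA, fewer cells of a kind and less RNA per cell cannot be told apart.

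Values are log2 expression after RMA, an Affymetrix method that corrects background, normalizes between arrays and merges the probes of a probe set. On this scale a difference of 1 is a doubling, and the median gene of an array lay at 6.27 to 6.33. Errors after ± are standard errors of the limma fit unless marked SD, and a gene is called when its Benjamini-Hochberg adjusted p, taken over all 18404 genes, is under 0.05. PTK7 itself stood at 5.63 with PTK7-1 and 5.53 with PTK7-2 in H1299, against 5.73 with GFP and 6.03 with LUC, and at 5.63 and 5.94 in H2009, against 6.64 and 6.86. It was thus lower in every PTK7 array than in the controls of its line, by -0.30 ± 0.17 in H1299 and -0.96 ± 0.17 in H2009, neither of which was called (limma adjusted p = 0.804 and 0.222). The epithelial markers EPCAM and CDH1 ran from 11.17 to 11.43 in H2009, whereas in H1299 they ran from 3.32 to 4.19, in the dim range, and only KRT8 and KRT18 of that list were bright there. Markers of leukocytes, fibroblasts and endothelium included 0 calls in any comparison of hairpins. Few genes of any kind were called there, with the highest share, 3.73% of all genes, for PTK7-1 against PTK7-2. The defining markers PTPRC, PECAM1 and DCN lay between 2.78 and 3.80 on all arrays. The leukocyte list was not uniformly dim, since CD68 ran from 9.59 to 10.48 in H1299 and from 7.76 to 8.63 in H2009, and CD79A reached 7.64 in H2009. Nor was the fibroblast list, in which COL1A1 ran from 6.09 to 6.37 in H1299 and from 6.77 to 6.93 in H2009. Among the endothelial markers, KDR reached 4.73 in H1299, and its difference between PTK7 and control hairpins, averaged over the lines, was 0.44 ± 0.16 (limma unadjusted p = 0.0310, adjusted p = 0.431).

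Promoters are shown next for the 2 members whose differences passed the threshold in a comparison of hairpins, BCL2L1 and BAK1. Which start these cells used was not tested. Each line holds the 250 bases before the annotated start, 5′ to 3′ on the minus strand, from RefSeq on GRCh38.p14, and capitals mark matches to the motifs named after them. The first lies at chr20:31723964-31724213, the more upstream of 2 starts listed for BCL2L1, and the second at chr6:33580277-33580526.

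BCL2L1: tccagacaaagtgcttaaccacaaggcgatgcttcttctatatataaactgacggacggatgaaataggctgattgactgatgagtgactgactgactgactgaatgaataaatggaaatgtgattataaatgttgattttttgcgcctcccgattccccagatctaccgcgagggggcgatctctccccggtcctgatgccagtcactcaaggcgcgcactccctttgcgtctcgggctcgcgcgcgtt
BAK1: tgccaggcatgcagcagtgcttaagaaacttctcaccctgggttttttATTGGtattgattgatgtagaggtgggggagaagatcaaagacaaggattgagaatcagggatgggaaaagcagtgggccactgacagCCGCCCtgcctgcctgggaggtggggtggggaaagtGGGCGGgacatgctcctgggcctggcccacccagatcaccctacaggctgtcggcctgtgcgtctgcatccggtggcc

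The motifs searched, on both strands, were the GC box (GGGCGG), the inverted CCAAT box (ATTGG), the E-box bound by MYC (CACGTG), the STAT motif (TTCNNNGAA), the forkhead motif (GTAAACA), the NF-kB motif of the immunoglobulin kappa enhancer, the CHOP and ATF composite motif (TGATGCAA) and the AP-1 motif (TGACTCA). The BAK1 window held 2 GC boxes and 1 inverted CCAAT box. Of all 35116 promoter windows of this length, 42.6% held at least 1 GC box and 32.0% at least 1 inverted CCAAT box. The BCL2L1 window held none of the 8 motifs. Promoters were listed for 9 of the 10 members, all except MCL1, and 6 of these 9 held a GC box, namely BAD, BAK1, BAX, BCL2L11, BID and PMAIP1. The E-box occurred for BAX, BBC3 and BID (6.35% of all windows), the forkhead motif for BCL2L11 (2.98%) and the AP-1 motif for BBC3 (4.20%). A member was counted if any of its listed windows held the motif, whereas the shares are per window, so the units differ. These are matches of letters and show no binding.

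Among the guardians, BCL2L1 was the member that stood higher with both PTK7 hairpins in both lines. BCL-XL, its main product, binds BAX, BAK and several BH3-only proteins, and the single probe set (8065569, gene at 31664452 to 31723963 on chromosome 20) does not separate it from the shorter pro-apoptotic splice form. In H1299 the log2 value was 10.37 with PTK7-1 and 10.99 with PTK7-2, against 10.07 with GFP and 9.75 with LUC. In H2009 it was 10.95 with PTK7-1 and 10.95 with PTK7-2, against 10.13 with GFP and 9.71 with LUC. No PTK7 array overlapped a control array of its line, and GFP lay above LUC in both lines.

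Averaged over the lines, BCL2L1 was 1.86-fold higher under PTK7 hairpins, a log2 difference of 0.90 ± 0.17 with a 95% interval from 0.50 to 1.30. That difference was not called without a block (limma adjusted p = 0.190) and was called when the hairpin, shared by the lines, was taken as a block (limma adjusted p = 0.0465). In the averaged comparison 0% of all genes were called without the block, with 1819 genes (9.88%) at an unadjusted p under 0.05, and 0.81% were called with it. The blocked fit takes the part of the spread that a hairpin shares between the lines out of its error, and so speaks of these 4 hairpins alone. Arrays were left out in turn only in the fits without the block, so whether the blocked call depends on a given array was not tested. The difference was 0.77 ± 0.24 in H1299 and 1.03 ± 0.24 in H2009, with adjusted p = 0.528 and 0.336. The H1299 minus H2009 difference of these was -0.26 ± 0.34 (limma adjusted p = 0.956), with an interval from -1.06 to 0.55.

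BCL2, the founding guardian, was dim throughout and stood higher in H1299 only by value. It measured 5.44 with PTK7-1 and 5.93 with PTK7-2 in H1299, against 5.06 with GFP and 5.18 with LUC, so these groups did not overlap. In H2009 it measured 4.50 with PTK7-1 and 4.73 with PTK7-2, against 4.57 and 4.41 on the controls, and there the groups overlapped. The averaged difference was 0.35 ± 0.13 and was not called (limma adjusted p = 0.442). The effect in H1299, 0.57 ± 0.19, and that in H2009, 0.13 ± 0.19, differed by 0.44 ± 0.26, which was not called either (limma adjusted p = 0.922).

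MCL1, a short-lived guardian that neutralises BIM, NOXA and BAK, hardly moved by value. Its values in H1299 were 10.14 and 10.17 with PTK7-1 and PTK7-2, against 10.15 with GFP and 10.10 with LUC. In H2009 they were 10.41 and 10.27, against 10.35 and 10.29. PTK7 and control arrays overlapped in both lines. The averaged difference of 0.03 ± 0.08 had a 95% interval from -0.16 to 0.22, or from -0.19 to 0.24 with the hairpin as a block. The BCL2L1 estimate of 0.90 lies outside both intervals, which speak of these hairpins alone.

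**Figure D1:**
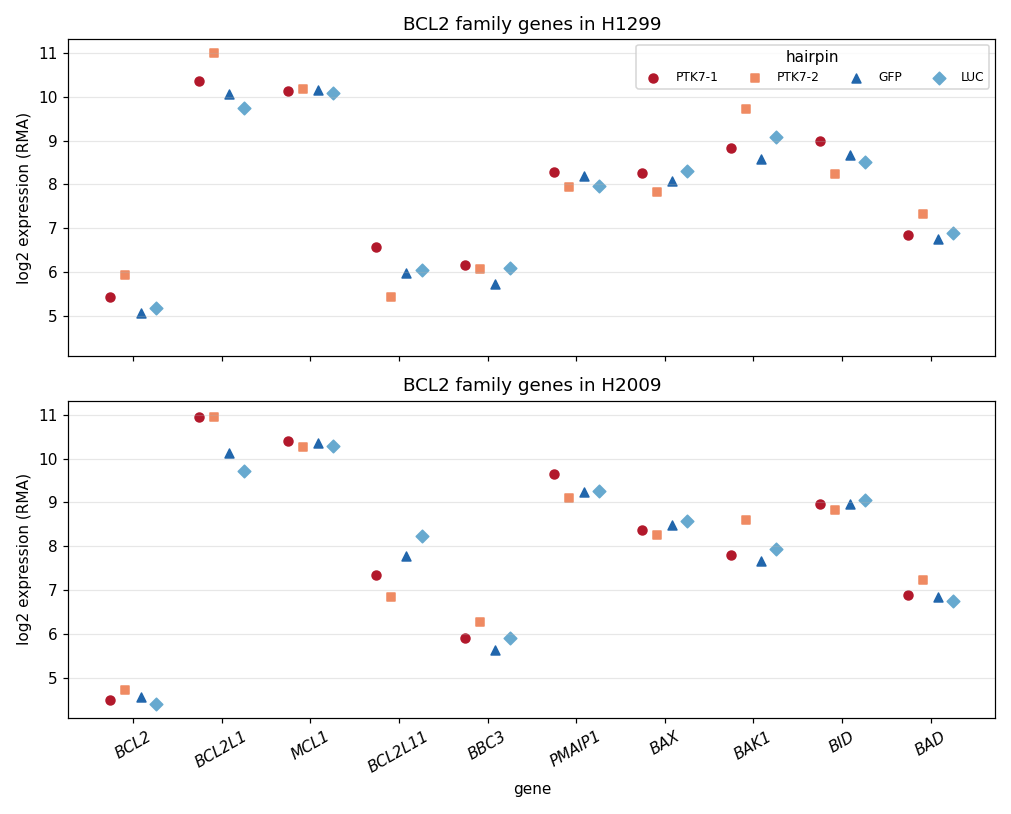
Log2 expression (RMA) of the 10 BCL2 family genes on each array, with H1299 above and H2009 below; each point is 1 array, with PTK7-1, PTK7-2, GFP and LUC from left to right. BCL2L1 stands at 10.37 to 10.99 with PTK7 hairpins, above the 9.71 to 10.13 of the controls, while the MCL1 points lie together.

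Among the BH3-only genes, BCL2L11 was the most variable. BIM, its product, binds every guardian and can activate BAX and BAK. In H2009 the log2 value was 7.34 with PTK7-1 and 6.83 with PTK7-2, against 7.79 with GFP and 8.23 with LUC, so both PTK7 arrays lay below both controls. In H1299 it was 6.57 with PTK7-1 and 5.43 with PTK7-2, against 5.98 with GFP and 6.05 with LUC. There PTK7-1 lay above and PTK7-2 below the controls, which stood close together.

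The H2009 difference for BCL2L11 was -0.92 ± 0.37 and was not called (limma adjusted p = 0.608), and the H1299 difference was -0.01 ± 0.37. The contrast between the lines, 0.91 ± 0.52, was not called (limma adjusted p = 0.922). Without PTK7-1 the H1299 value was -0.58, and without PTK7-2 it was 0.56, so its sign in that line followed the hairpin left out.

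BBC3 encodes PUMA, a potent BH3-only protein, and had a mean log2 value of 5.97, at percentile 45.5 of all genes. It measured 6.17 with PTK7-1 and 6.06 with PTK7-2 in H1299, against 5.74 with GFP and 6.10 with LUC. In H2009 it measured 5.92 and 6.27, against 5.63 with GFP and 5.90 with LUC. The groups overlapped in H1299, and in H2009 the lowest PTK7 array lay just above LUC. The averaged difference of 0.26 ± 0.13 was not called (limma adjusted p = 0.582), and the GFP minus LUC difference of -0.32 ± 0.15 was of similar size.

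PMAIP1 encodes NOXA, which binds MCL1 and promotes its breakdown. Its values in H1299 were 8.28 with PTK7-1 and 7.94 with PTK7-2, against 8.20 with GFP and 7.97 with LUC. In H2009 they were 9.65 and 9.10, against 9.24 and 9.26. In each line PTK7-1 was the highest array and PTK7-2 the lowest, and the average over the lines was 0.08 ± 0.15 (limma adjusted p = 0.908).

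BID, which death receptor signalling cleaves into its active form, gave 9.0 with PTK7-1 and 8.24 with PTK7-2 in H1299, against 8.67 with GFP and 8.50 with LUC. In H2009 it gave 8.95 and 8.82, against 8.96 and 9.06. The PTK7 hairpins lay on either side of the controls in H1299 and slightly below them in H2009, and the average was -0.04 ± 0.17.

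BAD, a phosphorylation-controlled sensitizer that binds BCL2 and BCL-XL, gave 6.85 with PTK7-1 and 7.33 with PTK7-2 in H1299, against 6.76 with GFP and 6.89 with LUC. In H2009 it gave 6.88 and 7.23, against 6.85 and 6.76. PTK7-2 was the highest array in each line, and the average of 0.26 ± 0.14 was not called (limma adjusted p = 0.607).

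Of the pore formers, BAX was not called and BAK1 split by hairpin. BAX measured 8.26 with PTK7-1 and 7.83 with PTK7-2 in H1299, against 8.09 with GFP and 8.30 with LUC. In H2009 it measured 8.38 and 8.25, against 8.49 and 8.57. PTK7-2 was the lowest array in each line, and the averaged difference of -0.18 ± 0.12 was not called (limma adjusted p = 0.682).

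BAK1 measured 8.83 with PTK7-1 and 9.71 with PTK7-2 in H1299, against 8.59 with GFP and 9.09 with LUC. In H2009 it measured 7.80 with PTK7-1 and 8.59 with PTK7-2, against 7.66 with GFP and 7.94 with LUC. In both lines PTK7-1 lay between the controls and PTK7-2 above them. The averaged knockdown difference of 0.41 ± 0.26 (limma adjusted p = 0.660) therefore joined 2 unlike hairpins. RefSeq lists the pseudogenes BAK1P1 and BAK1P2, and how much of this signal comes from such copies was not tested.

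Across the members, the knockdown comparison without the block called 0 of 10 in the average, in H1299 and in H2009, and 0 for the difference between the lines. By unadjusted p under 0.05, the average held BCL2 and BCL2L1, both higher, beside 4.74% of all genes in that direction. H1299 also held BCL2 and BCL2L1, beside 7.48% of all genes in either direction. H2009 held BCL2L1 (higher) and BCL2L11 (lower), beside 7.98%. Over all genes 0.00543% were called in H1299, 0% in H2009 and 0% for the difference between the lines, where 951 genes (5.17%) had an unadjusted p under 0.05.

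Arrays of the groups did not overlap, with PTK7 higher, for 2 members in H1299 (BCL2 and BCL2L1), beside 15.6% of all genes, and with PTK7 lower for 0, beside 16.1%. In H2009 they did not overlap for 3 higher members (BCL2L1, BBC3 and BAD), beside 26% of all genes, and for 3 lower ones (BCL2L11, BAX and BID), beside 18.9%. BCL2L1 was the 1 member separated in the same direction in each line, beside 9.45% of all genes, and 0 members were separated in opposite directions, beside 5.66%. The median averaged difference was 0.17 over the members and 0.02 over all genes, and the median size without sign was 0.26 and 0.11.

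**Figure D2:**
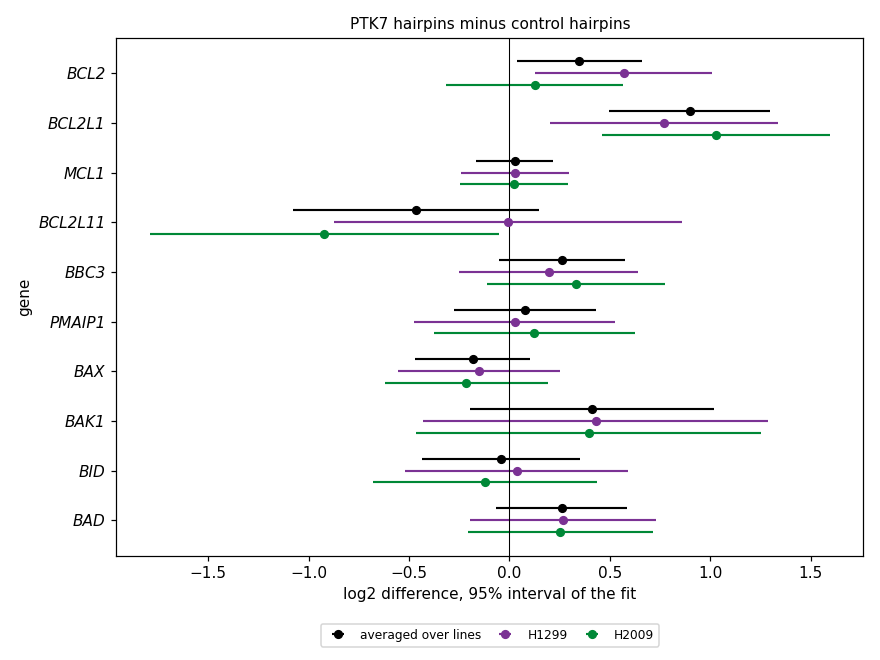
Log2 difference, PTK7 hairpins minus control hairpins, for each of the 10 members, averaged over the lines (black), in H1299 (purple) and in H2009 (green); points are limma estimates and bars 95% intervals before adjustment. BCL2L1 lies at 0.90, 0.77 and 1.03, MCL1 at 0.03, 0.03 and 0.02, and the wide bars of BCL2L11 and BAK1 reflect hairpins that differed.

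Each hairpin was then set against the controls over both lines, in a fit of hairpin and line. PTK7-2 carried the called members: BAK1 was 1.78-fold higher with PTK7-2 than with the controls, at 0.83 ± 0.11 (limma adjusted p = 0.0154), and BCL2L1 was 2.08-fold higher, at 1.05 ± 0.16 (limma adjusted p = 0.0204). With PTK7-1 BAK1 stood at -0.01 ± 0.11 (limma adjusted p = 0.998) and BCL2L1 at 0.74 ± 0.16 (limma adjusted p = 0.0759). Thus 2 of 10 members were called with PTK7-2, where 2.15% of all genes were, and 7 members had an unadjusted p under 0.05 (16.8% of all genes). In turn, 0 of 10 were called with PTK7-1, where 1.23% were and 2 members, BCL2L1 and PMAIP1, had an unadjusted p under 0.05 (12.9% of all genes). These comparisons share their control arrays and are not independent of each other.

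The direct test of PTK7-1 minus PTK7-2 called BAK1, at -0.84 ± 0.13 (limma adjusted p = 0.0194), beside 3.73% of all genes, and 5 members had an unadjusted p under 0.05 (18.3% of all genes). The BAK1 difference was -0.88 in H1299 and -0.79 in H2009, so the lines gave similar sizes. For BCL2L1 the same difference was -0.31 ± 0.18 (limma adjusted p = 0.447), with an interval from -0.73 to 0.11. It was -0.63 in H1299 and 0.00 in H2009, so the hairpins stood apart by value in H1299 and level in H2009.

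The calls on PTK7-2 were lost for 5 of the 8 arrays left out in turn. Against the controls, both members lost their call without GFP or LUC of either line and without PTK7-2 of H1299, with adjusted p from 0.0567 to 0.118, while their differences stayed at 0.79 to 0.87 for BAK1 and 0.93 to 1.18 for BCL2L1 over all 8 arrays left out. For BAK1 between the PTK7 hairpins, the call was lost without GFP of H1299 or H2009 (adjusted p = 0.0501 for each), PTK7-1 of H1299 (0.149), PTK7-2 of H1299 (0.0749) or PTK7-1 of H2009 (0.107), at differences from -0.88 to -0.79.

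Besides BAK1, 6 members had the same order of the PTK7 hairpins in both lines without being called. PTK7-1 lay above PTK7-2 in both lines for BCL2L11, PMAIP1, BAX and BID, which is 4 members beside 25% of all genes. It lay below for BCL2, BAK1 and BAD, which is 3 members beside 30.3%. The PTK7-1 minus PTK7-2 difference was 0.83 ± 0.30 for BCL2L11, 0.45 ± 0.14 for PMAIP1, 0.45 ± 0.18 for BID and 0.28 ± 0.14 for BAX. It was -0.42 ± 0.13 for BAD and -0.36 ± 0.18 for BCL2, and these 6 had limma adjusted p from 0.133 to 0.355. Against the controls, PTK7-2 gave BCL2L11 -0.88 ± 0.26 (limma adjusted p = 0.136), and PTK7-1 gave -0.05 ± 0.26.

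The control hairpins give the background of such differences. GFP minus LUC called 0 of 10 members and 0% of all genes, with 672 genes (3.65%) at an unadjusted p under 0.05. The largest among the members were BAK1 at -0.39 ± 0.13 and BCL2L1 at 0.37 ± 0.18, each with the same sign in both lines and a limma adjusted p of 1.00. BAK1 was the member with an unadjusted p under 0.05 there (0.0186). The gap between controls thus ran opposite ways for these genes, and the PTK7-2 arrays exceeded the higher control for both.

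**Figure D3:**
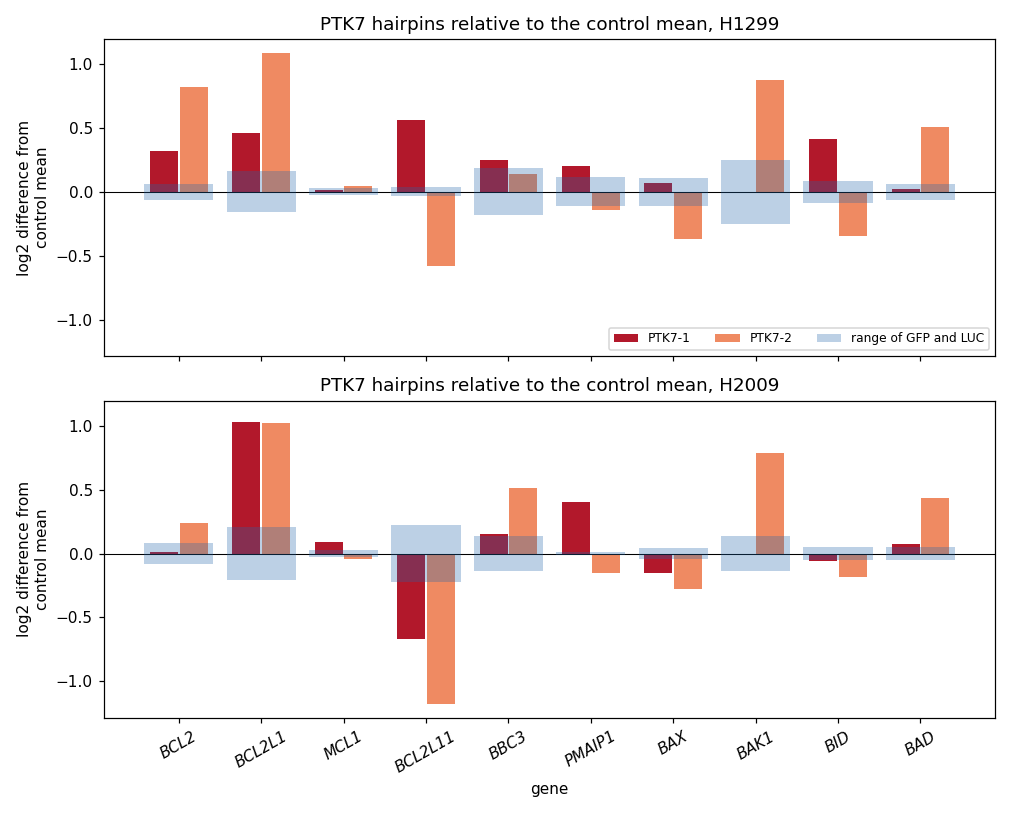
Log2 difference of each PTK7 hairpin from the mean of the 2 control arrays of its line, with H1299 above and H2009 below; each bar is 1 array, and the blue band spans the GFP and LUC arrays. For BAK1 the PTK7-2 bars reach 0.87 and 0.79 and the PTK7-1 bars lie at 0, whereas for BCL2L1 all 4 bars leave the band.

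Under control hairpins, BCL2L11 and PMAIP1 were lower and BCL2 was higher in H1299 than in H2009. BCL2L11 was 3.99-fold lower in H1299 than in H2009, at -2.0 ± 0.37 (limma adjusted p = 0.0075), with group means of 6.01 ± 0.05 and 8.01 ± 0.32 (SD, n = 2 each). PMAIP1 was 2.25-fold lower in H1299, at -1.17 ± 0.21 (limma adjusted p = 0.0072), with 8.08 ± 0.16 and 9.25 ± 0.02 (SD, n = 2 each). BCL2 was 1.55-fold higher in H1299, at 0.63 ± 0.19 (limma adjusted p = 0.0472), with 5.12 ± 0.09 and 4.49 ± 0.11 (SD, n = 2 each). These 3 of 10 calls stand beside 24.8% of all genes called between the lines.

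BAK1 was 2.06-fold higher in H1299, at 1.04 ± 0.36, which was not called without the hairpin block (limma adjusted p = 0.0818) and was called with it (0.0016), where 31.3% of all genes were. BCL2L1 hardly differed by value, with 9.91 ± 0.22 in H1299 and 9.92 ± 0.29 in H2009 (SD, n = 2 each) and an interval of the difference from -0.58 to 0.56. The other members lay between -0.42 ± 0.24 for BID and 0.16 ± 0.19 for BBC3 and were not called. Without LUC of H2009, 0 members were called between the lines, since BCL2L11 then had adjusted p = 0.0633, PMAIP1 0.0549 and BCL2 0.240. PMAIP1 also lost its call without LUC of H1299 (0.0522), and BCL2 lost it without any control array or either PTK7 array of H2009 (adjusted p from 0.0557 to 0.240).

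**Figure D4:**
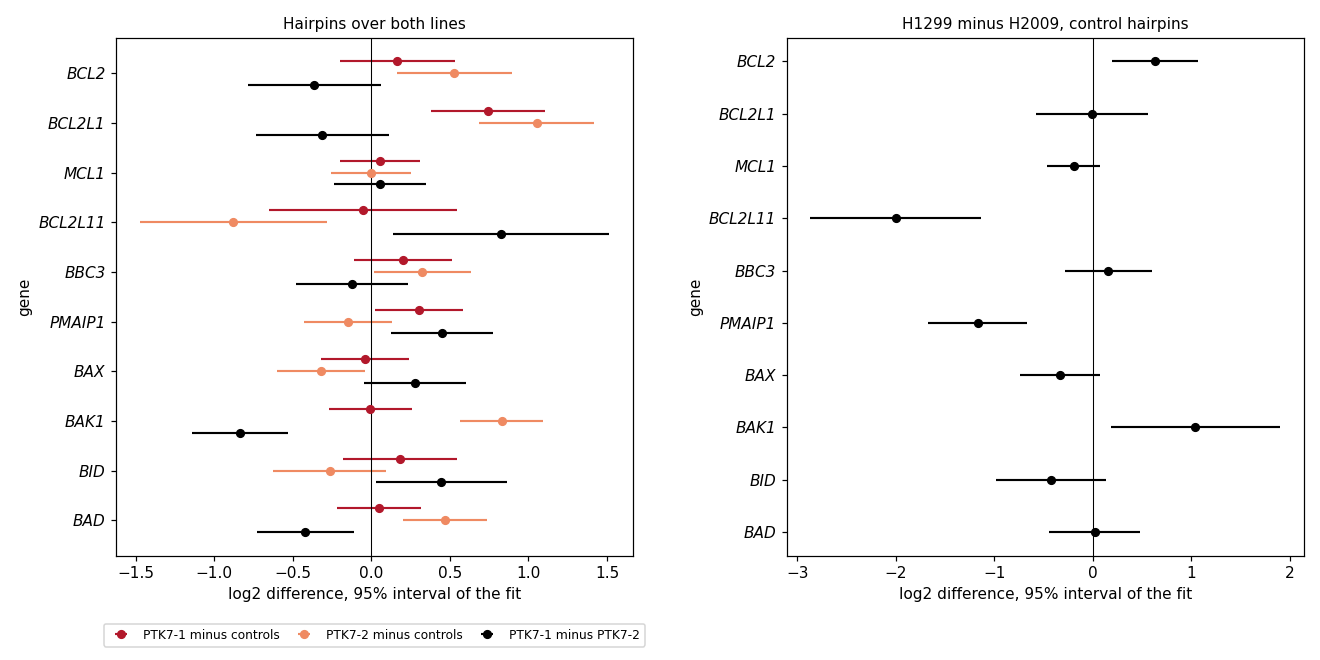
Left, log2 differences of PTK7-1 and PTK7-2 from the controls and of PTK7-1 from PTK7-2, over both lines; right, H1299 minus H2009 under control hairpins; points are limma estimates and bars 95% intervals before adjustment. BAK1 stands at 0.83 with PTK7-2 and at -0.01 with PTK7-1, and BCL2L11 at -2.0 between the lines.

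The rest of the pathway was described from 6 gene lists, none of which held a called gene in the knockdown comparisons, with or without the block. In the averaged comparison 0% of all genes were called without the block and 0.81% with it, so few calls could have fallen in these lists. Of 12 measured genes among 13 other BCL2 family genes, 8 were higher and 4 lower by value, with a median of 0.05. BNIP3L, a mitophagy receptor with a BH3-like stretch, stood at -0.41 ± 0.10 (limma adjusted p = 0.272). BOK, a further pore former, stood at 0.28 ± 0.12, and HRK, a BH3-only gene, at 0.17 ± 0.09.

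Downstream of the mitochondrion, 4 of 9 genes of mitochondrial release and the apoptosome were higher by value and 5 lower, with a median of -0.01. APAF1, the scaffold of the apoptosome, stood at 0.24 ± 0.11, HTRA2, a protease released from mitochondria, at -0.20 ± 0.09, and the channel gene VDAC3 at 0.21 ± 0.11. Of 5 caspases, 3 were higher by value and 2 lower. CASP6, an executioner caspase, stood at -0.49 ± 0.12 (limma adjusted p = 0.259), with 6.47 and 6.94 on the PTK7 arrays of H1299, against 7.02 and 7.09 on the controls. In H2009 CASP6 gave 7.54 and 7.70, against 8.20 and 8.30, so its PTK7 arrays lay below the controls in both lines. Of all genes, 9.45% were separated in one direction in each line. CASP6 was named for its small unadjusted p in the averaged comparison, which favours such separation, so this share is no like background. CASP2, an initiator caspase, stood at -0.16 ± 0.24, and it was lower with PTK7-1 than with PTK7-2 at -0.83, called with the hairpin block (limma adjusted p = 0.0309) and not without it (0.0902). CASP8 stood at 0.07 ± 0.11.

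Of 5 measured inhibitors of apoptosis proteins among 6, 3 were higher by value and 2 lower. XIAP, which blocks caspases directly, stood at 0.23 ± 0.09, BIRC2 at 0.19 ± 0.15 and BIRC6 at -0.18 ± 0.10. In the death receptor branch, 7 of 7 measured genes among 8 were higher by value, with a median of 0.06, and of all genes the median was 0.02. In H1299 alone 4 were higher and 3 lower, and in H2009 6 and 1. With PTK7-1 against the controls 3 were higher and 4 lower, at a median of -0.07, and with PTK7-2 7 were higher, at a median of 0.22. TNFRSF10A, a TRAIL receptor, stood at 0.43 ± 0.12 (limma adjusted p = 0.316), with -0.06 ± 0.18 in H1299 and 0.93 ± 0.18 in H2009. FAS stood at 0.15 ± 0.10 and TNFRSF1A at 0.13 ± 0.10.

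Of 14 measured factors among 15 known to act on BCL2 family genes or proteins, 9 were higher by value and 5 lower. DDIT3 encodes CHOP, a stress factor known to induce BIM and PUMA, and stood at 0.79 ± 0.18 (limma adjusted p = 0.230). It measured 8.57 with PTK7-1 and 9.29 with PTK7-2 in H1299, against 8.12 with GFP and 8.32 with LUC. In H2009 it measured 8.32 and 7.84, against 7.20 and 7.21, so its PTK7 arrays lay above the controls in both lines. This again stands beside 9.45% of all genes separated in one direction in each line. Of the list genes named here, BNIP3L, BOK, VDAC3, CASP6, XIAP and USP9X were separated in that way too, higher or lower. DDIT3 and these genes were named for small unadjusted p in the averaged comparison, which favours such separation. The share over all genes is therefore no like background for them, and nothing is drawn from it. USP9X, a deubiquitinase that stabilises MCL1 protein, stood at -0.19 ± 0.10, and FOXO3, a known activator of BCL2L11, at 0.17 ± 0.10.

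Between the lines under control hairpins, 15 of the 52 measured genes of these 6 lists were called, 6 higher and 9 lower in H1299 than in H2009, a share of 28.8% beside 24.8% of all genes. The caspases held 3 lower calls of 5 genes, CASP6 at -1.20 ± 0.17, CASP8 at -0.92 ± 0.16 and CASP10 at -1.04 ± 0.24. Among the other BCL2 family genes, HRK was higher at 0.97 ± 0.13, and BCL2A1, BCL2L10 and BNIP3 were lower at -0.48 ± 0.14, -0.67 ± 0.13 and -1.02 ± 0.21. In the death receptor branch TNFRSF10A was higher at 1.20 ± 0.18 and TRADD, an adaptor of the TNF receptor, was lower at -0.60 ± 0.18. HTRA2 and AIFM1, both released from mitochondria, were higher at 0.58 ± 0.13 and 0.81 ± 0.12. Of the factors, DDIT3 and TP73 were higher at 1.01 ± 0.26 and 0.53 ± 0.14, and STAT3 and USP9X were lower at -1.13 ± 0.20 and -0.58 ± 0.14. The inhibitors of apoptosis proteins held 0 calls. The limma adjusted p of the 15 genes ran from 0.0017 to 0.0484, and those outside the averaged comparison's named genes were named after their values were seen.

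The 5 genes whose pattern came closest to that of BCL2L1, over the 8 arrays with each line centred on its mean, were GADD45A, PLAU, VTRNA1-3, TMEM255A and USP53. Their root mean square difference from BCL2L1 was 0.13, 0.13, 0.15, 0.17 and 0.17 on the log2 scale, and the median over all genes was 0.51. GADD45A, a stress-induced gene, measured 8.40 and 9.0 with PTK7-1 and PTK7-2 in H1299, against 8.14 with GFP and 7.73 with LUC. In H2009 it measured 8.32 and 8.38, against 7.88 and 7.50. Like BCL2L1, it had LUC as its lowest array in each line. These genes were picked for their likeness, which carries no test.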

How the data were processed

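The deposited values are log2 expression per probe set, which, per the submitters' processing notes, the authors computed by RMA under R 2.14.0. The genome build and annotation behind them are not given in the sources used here. Of 32321 probe sets, 19158 had a single gene symbol in the array annotation, and the brightest over the 8 arrays was kept for each of 18404 genes. Gene positions are those of RefSeq on GRCh38.p14. No pair of arrays held identical values.

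Linear models were fitted by limma 3.58.1 (R 4.3.3) to all 8 arrays, with contrasts of 4 group means, and hairpins in a fit of hairpin and line, with Benjamini-Hochberg adjustment over all genes. The lines share their hairpins, per the labels, and arrays of the same hairpin deviated together (r over genes of 0.407 for PTK7 and 0.230 for control hairpins), so the hairpin was also entered as a block in a further fit. The group fit and the fit of hairpin and line were tested on simulated data whose noise was independent between arrays. The fit with the block was not tested in this way.

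All members are named, with 3 genes per pathway list by unadjusted p in the averaged comparison and the 5 genes nearest to BCL2L1. Members and lists were chosen with earlier results of these data known. The number of arrays limits the precision. Alternatives were the block, an additive fit, single-line fits, leaving out the dimmest 40% of genes, averaging probe sets per gene, centring arrays on their medians, quantile normalization, a trended prior and leaving out each array. Figures were drawn with matplotlib 3.10.9.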

Additional observations from a re-analysis of the deposited data

Results flagged for a closer look

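BCL2A1, a guardian related to BCL2, moved in opposite directions in the lines by value: every PTK7 array lay below both controls in H1299 and above both in H2009. Its log2 values were 3.83 and 3.62 with PTK7-1 and PTK7-2 in H1299, against 3.91 with GFP and 3.90 with LUC, and 4.79 and 4.82 in H2009, against 4.54 and 4.24. The H1299 minus H2009 difference of the knockdown effects was -0.59 ± 0.20 and was not called (limma adjusted p = 0.911). BCL2A1 was dim on all arrays. Of all genes, 5.66% were separated in opposite directions in the lines, and VDAC2 of the gene lists was as well.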

How the results depend on the processing

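Of the 10 members, the hairpin block called 1 (BCL2L1) in the averaged comparison instead of 0, and a trended prior called 1 (BCL2L1, adjusted p = 0.0230) with PTK7-1 against the controls instead of 0. The block ended no other call and added BAK1 between the lines (adjusted p = 0.0016). Leaving out each array gave 0 to 5 called members between the lines, 0 to 2 for PTK7-2 against the controls, 0 to 1 between the PTK7 hairpins and 0 to 0 elsewhere; the cause was not tested beyond the smaller number of arrays. No member changed direction in a called result. Quantile normalization, median centring, the mean of probe sets and removal of the dimmest 40% of genes left each count of called members within 1.5 times its value. BCL2 was itself among the dimmest 40%, so its call between the lines was not retested there. Over all genes, the averaged comparison called 149 with the block, 2 in the additive fit, 3 with a trended prior and 0 to 5 with an array left out, instead of 0. H1299 called 4 with the block, 0 in the single-line fit, 0 without dim genes and 0 to 8 with an array left out, instead of 1. The difference between the lines called 1 with the block, 1 with a trended prior and 0 to 3 with an array left out, instead of 0. PTK7-1 against the controls called 348 without dim genes, 373 with a trended prior and 0 to 347 with an array left out, instead of 226. With an array left out, PTK7-2 against the controls called 18 to 545 instead of 395, the PTK7 hairpins 0 to 943 instead of 686, and the lines 2196 to 5298 instead of 4566.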
